A study of Mus musculus with 2 samples.

Results

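The genes described here are 10 ubiquitin ligase genes linked to muscle wasting (Trim63, Trim54, Trim55, Trim32, Fbxo32, Fbxo30, Fbxo40, Cblb, Mdm2 and Traf6), chosen by symbol from the 55536 genes of the annotation. Total RNA-seq libraries of the gastrocnemius, the large muscle of the calf, were read for their RNA in 2 male B6Cast F1 mice. Both animals were 25 days old, came from The Jackson Laboratory under the strain name B6CASTF1/J, and gave 1 library each from 300 ng of RNA. The labels give no treatment and no mutant allele, so the series has 1 group and no control muscle. The tissue samples are numbered Male 04 (animal 2) and Male 03 (animal 1), but both carry the same donor entry, so that separate animals rest on those numbers. Nothing in these data is an atrophy condition: the values are those of growing juvenile muscle, and the comparison is between the animals.

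Ubiquitin ligases choose the proteins to which ubiquitin is attached, and chains of ubiquitin send most such proteins to the proteasome. In skeletal muscle, fasting, denervation, unloading and glucocorticoids raise a small set of ligase mRNAs, of which those of Trim63 (MuRF1) and Fbxo32 (atrogin-1, also MAFbx) are the best known. Transcription factors of the FoxO family, held out of the nucleus by insulin and IGF signalling, switch on both genes when that signalling falls. Trim63, Trim54 and Trim55 encode the 3 MuRF proteins, RING finger ligases that bind titin and other parts of the sarcomere. The F-box members are substrate readers of SCF ligases, and Cblb, Mdm2 and Traf6 are RING ligases found in most tissues.

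The genes are scattered over the genome. Of the TRIM genes, Trim63 (chr4:134315120-134329629) and Trim32 (chr4:65604986-65616238) share a chromosome but lie far apart, Trim54 lies at chr5:31116712-31137630 and Trim55 at chr3:19644474-19692421, each on the plus strand. Of the F-box genes, Fbxo32 (chr15:58175879-58214932) and Fbxo40 (chr16:36963460-36990467) are on the minus strand and Fbxo30 (chr10:11281330-11298052) on the plus strand. Cblb (chr16:52031225-52208048) and Traf6 (chr2:101678429-101701669) are on the plus strand, and Mdm2 (chr10:117688875-117710758) is on the minus strand.

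The MuRF genes are close relatives, and the sequences below show where reads could be shared between them. They are 60 coding bases of exon 2 in the leading transcript models, read 5′ to 3′ on the coding strand, and capitals mark bases that differ from Trim63. Trim63 (chr4:134316498-134316557) is given whole, Trim54 (chr5:31131153-31131212) had 56 of 60 bases identical to it, and Trim55 (chr3:19645385-19645444) had 53 of 60. All coordinates are mm10.
Trim63: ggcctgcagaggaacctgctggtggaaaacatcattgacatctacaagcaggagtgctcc
Trim54: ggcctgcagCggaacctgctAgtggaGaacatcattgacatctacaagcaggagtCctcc
Trim55: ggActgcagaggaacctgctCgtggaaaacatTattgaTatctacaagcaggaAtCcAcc
Over the aligned coding sequences, Trim63 and Trim54 shared 68.1% of bases and a longest identical run of 28 bases. Trim63 and Trim55 shared 67.6% with a run of 17 bases, and Trim54 and Trim55 shared 66.3% with a run of 16 bases. No coding run longer than those is shared between these mRNAs, and the deposited posterior SD of the count was 0 for all 10 genes in both libraries, as it was for 80.4% of the 9492 genes with 100 counts or more in both.

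Promoter windows, the 250 bases before the start, were taken from RefSeq (GRCm38.p6) for 8 of the 10 genes, Trim55 and Fbxo32 having no entry. The start is that of RefSeq, which for Trim54 lies upstream of the M21 start given above. Those of Trim63 and Trim54 show the MuRF promoters, and that of Mdm2 was picked after its match was seen. Capitals mark matches, on either strand, to the FoxO element GTAAACA and to the glucocorticoid receptor hexamer, AGAACA. Read from the other strand these are TGTTTAC for FoxO, and TGTTCT for the hexamer.
Trim63, chr4:134314870-134315119, plus strand: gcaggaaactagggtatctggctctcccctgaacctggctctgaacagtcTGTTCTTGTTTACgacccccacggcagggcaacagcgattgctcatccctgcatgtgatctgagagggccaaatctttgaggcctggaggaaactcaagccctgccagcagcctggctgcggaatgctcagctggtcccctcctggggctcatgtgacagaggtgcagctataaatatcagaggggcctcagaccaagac
Trim54, chr5:31116362-31116611, plus strand: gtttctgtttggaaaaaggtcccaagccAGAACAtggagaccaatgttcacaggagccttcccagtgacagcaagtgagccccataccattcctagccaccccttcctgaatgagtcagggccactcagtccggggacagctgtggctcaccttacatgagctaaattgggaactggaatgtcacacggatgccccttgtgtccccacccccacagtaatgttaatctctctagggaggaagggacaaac
Mdm2, chr10:117710759-117711008, minus strand: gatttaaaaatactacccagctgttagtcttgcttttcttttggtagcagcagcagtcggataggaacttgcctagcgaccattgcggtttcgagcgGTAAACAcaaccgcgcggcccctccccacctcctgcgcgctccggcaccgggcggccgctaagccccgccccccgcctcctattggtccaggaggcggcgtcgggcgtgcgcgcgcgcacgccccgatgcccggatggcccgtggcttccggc
The Trim63 window held TGTTCT at 200 to 195 bases before the start and TGTTTAC at 194 to 188 bases, directly next to each other. In mouse and human cells the glucocorticoid receptor and FoxO1 are known to act together on this promoter. The joined 13 letters TGTTCTTGTTTAC, a string looked for after the window was read, stood in 1 of 32851 windows, that of Trim63. The match there was thus given in advance, and a string of that length is rare by length alone. Singly the motifs were commoner: GTAAACA was in 3.17% of all windows, among these genes in Trim63 and Mdm2, and AGAACA in 16.1%, among these genes in Trim63, Trim54 and 1 of the windows of Fbxo40. The full glucocorticoid element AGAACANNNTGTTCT was in 0.00913% of windows and in none of these genes. TATAAA, the core of a TATA box, was in 12.4% of windows and among these genes in Trim63 alone, 31 to 26 bases before the start. The E-box CANNTG, which myogenic factors bind, was in 66.2% of windows and in 8 of the 9 windows of these genes, so its presence sets none of them apart. A match is a description of letters, and binding was not measured. The windows held 2 to 4 CpG in Trim63, Trim54 and both of Fbxo40, 13 or 14 in Trim32, Traf6 and Cblb, 29 in Mdm2 and 40 in Fbxo30, against a median of 6 over all windows.

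All 10 genes were detected, at 1 TPM or more in both animals (TPM is a level corrected for transcript length and scaled to a common total, and serves here whenever genes are set side by side). Trim63 was at 29.6 times the level of Traf6, the lowest member, in animal 2 and at 44.5 times in animal 1. Together they summed to 416 TPM in animal 2 and 448 TPM in animal 1, or 0.103% and 0.115% of the TPM of nuclear protein-coding genes. The libraries held 37428588 expected counts in animal 2 and 35098487 in animal 1, of which these genes took 35122 and 33896, so counting error is small for most of them. In bulk tissue, a smaller number of cells of a type and less RNA per cell cannot be told apart. Levels are means ± SD over n = 2 animals, and the SD may hold technical as well as animal differences.

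**Figure D1:**
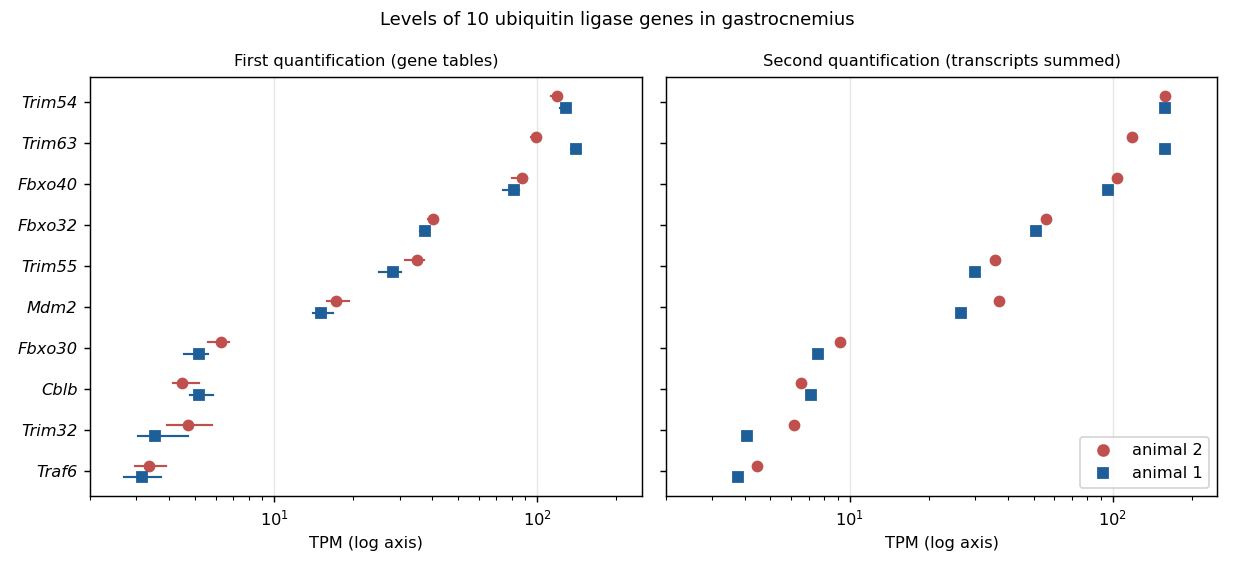
TPM of the 10 genes on a log axis in the first quantification (left) and in the second (right), with circles for animal 2 and squares for animal 1, and lines for the deposited TPM interval. Trim54, Trim63 and Fbxo40 lie at the top in both animals and in both quantifications, and Traf6 lies lowest in each.

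Among the MuRF genes, Trim63 and Trim54 stood at nearly one level and Trim55 well under them. Trim63, which tags myosin heavy chain and other thick filament proteins in wasting muscle, had 99.1 TPM in animal 2 and 140.5 TPM in animal 1 (119.8 ± 29.3). Trim54 (MuRF3), which binds microtubules, had 118.6 TPM in animal 2 and 128.5 TPM in animal 1 (123.5 ± 7.0). Which of them led depended on the animal in the first quantification: Trim63 was at 0.835 times the level of Trim54 in animal 2 and at 1.09 times in animal 1. In the second quantification Trim54 led in both animals, with Trim63 at 0.746 times its level in animal 2 and at 0.998 times in animal 1. Trim55 (MuRF2), which takes part in titin kinase signalling, had 35.0 TPM in animal 2 and 28.3 TPM in animal 1 (31.7 ± 4.71). Trim63 was at 2.83 times the level of Trim55 in animal 2 and at 4.96 times in animal 1, so the ratio within the MuRF group itself differed between the animals. Trim32, a TRIM ligase that targets desmin and thin filament proteins and is mutated in a limb-girdle muscular dystrophy in humans, was low, with 4.70 TPM in animal 2 and 3.53 TPM in animal 1 (4.12 ± 0.827).

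Among the F-box members, Fbxo40 was the most abundant, not Fbxo32. Fbxo40, a muscle-restricted F-box protein that marks IRS1 for degradation after IGF1 stimulation, had 87.4 TPM in animal 2 and 81.6 TPM in animal 1 (84.5 ± 4.10). Fbxo32, whose known targets include MyoD and the translation factor eIF3f, had 40.2 TPM in animal 2 and 37.4 TPM in animal 1 (38.8 ± 1.93). The ratio of Fbxo40 to Fbxo32 was 2.18 in animal 2 and 2.18 in animal 1. By expected counts Fbxo32 exceeded Trim63 in both libraries, with 8440 in animal 2 and 7426 in animal 1 against 5358 and 7157 for Trim63, while by TPM Trim63 was at 2.47 times Fbxo32 in animal 2 and at 3.75 times in animal 1. The Fbxo32 model is 6976 bases long, of which the 3′ UTR is 80.1%, and the Trim63 model is 1886 bases long. Fbxo30 (MUSA1), an F-box gene that is restrained by BMP signalling in mouse muscle, had 6.30 TPM in animal 2 and 5.18 TPM in animal 1 (5.74 ± 0.792).

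The widely expressed ligases were low, apart from Mdm2. Mdm2, the ligase that holds p53 in check, had 17.1 TPM in animal 2 and 15.1 TPM in animal 1 (16.1 ± 1.46). Cblb, which marks IRS1 for degradation in unloaded muscle, had 4.48 TPM in animal 2 and 5.17 TPM in animal 1 (4.83 ± 0.488). Traf6, a ligase of cytokine receptor signalling that is required for full denervation atrophy in mice, had 3.35 TPM in animal 2 and 3.16 TPM in animal 1 (3.26 ± 0.134). Fbxo30, Cblb, Trim32 and Traf6 were the 4 genes under 10 TPM in both animals. In the first quantification, the order of the 10 genes was the same in both animals except for 2 swaps of neighbours, Trim54 with Trim63 and Trim32 with Cblb.

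Between neighbours in that order, the ranges over the animals overlapped for Trim54 with Trim63 and for Cblb with Trim32, so these pairs do not differ beyond their spread. The lowest value of Fbxo30, 5.18 TPM, all but met the highest of Cblb, 5.17 TPM. The other neighbours had ranges that stood apart. Against the 9937 nuclear protein-coding genes detected in both animals, Trim54 ranked 361st and Trim63 375th by mean TPM, and Fbxo40 ranked 507th. Fbxo32 ranked 1075th, Trim55 1335th and Mdm2 2524th, while 55.6% of those genes were above Fbxo30, 61.1% above Cblb, 66.1% above Trim32 and 73.3% above Traf6.

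Each member can also be set within its own family. Of 68 annotated protein-coding TRIM genes, 29 were detected, at a median of 5.70 TPM. Trim54 and Trim63 held the first 2 places in both animals, followed by Trim72, a membrane repair gene of striated muscle, with 92.0 TPM in animal 2 and 78.5 TPM in animal 1. Trim55 was 5th, and Trim32 was 17th by mean level. The 4 genes studied here held 46.1% of all TRIM TPM in animal 2 and 53.1% in animal 1, and within that sum Trim63 is the gene that differed most. Of 77 F-box genes, 39 were detected, at a median of 6.69 TPM. Fbxo40 was 1st and Fbxo32 3rd, with Fbxo31 between them at 42.4 TPM in animal 2 and 39.0 TPM in animal 1, and Fbxo30 was 21st. The 3 genes studied here held 28.9% of F-box TPM in animal 2 and 29.0% in animal 1.

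**Figure D2:**
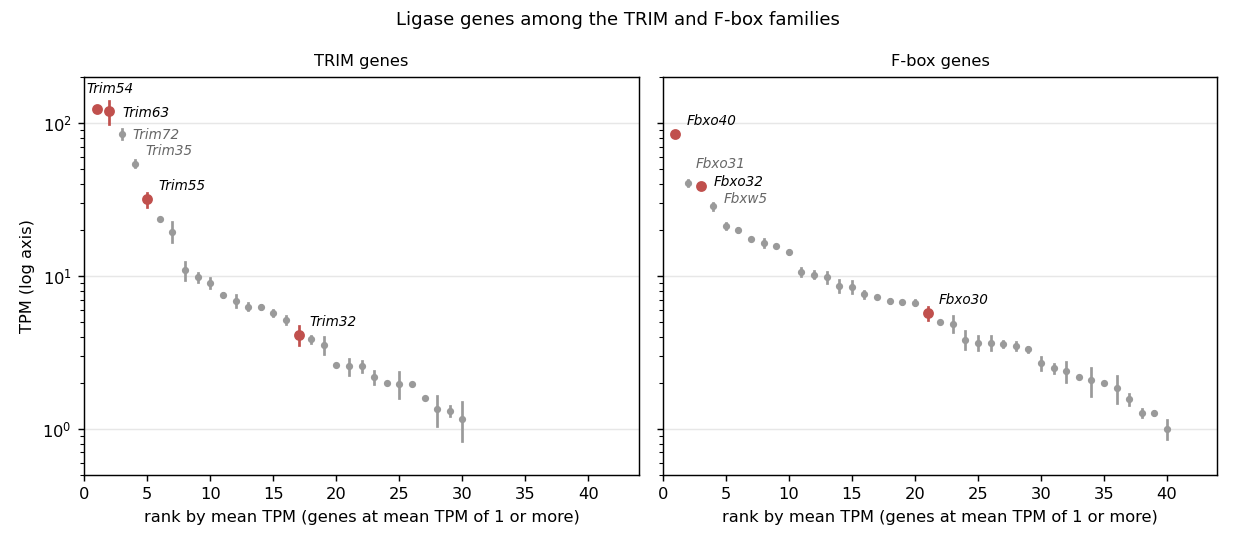
Level of each TRIM gene (left) and F-box gene (right) with a mean of 1 TPM or more, on a log axis, against its rank in the family. Points are means of the 2 animals and lines run between the animals; red marks the genes studied here. Trim54, Trim63 and Trim55 are among the first 5 TRIM genes and Fbxo40 and Fbxo32 among the first 3 F-box genes, while Trim32 and Fbxo30 lie mid-family.

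The animals were then compared gene by gene, as libraries. Expected counts, scaled by TMM, were set against each other with an exact conditional binomial test, two-sided, adjusted by Benjamini-Hochberg over all 14754 genes tested. Such a test sets 1 library against the other rather than 1 condition against another, and it knows no error but that of sampling. Of the 10 genes, 3 fell in animal 2 (Trim63, Cblb and Trim54 were lower there than in animal 1), against 7.59% of all genes tested (14.1% were called in either direction). None was called higher in animal 2, against 6.49% of all genes tested, and none of the 10 was higher at an unadjusted p under 0.05 either in this binomial test. Among the 6425 nuclear protein-coding genes with at least the summed count of the lowest member, 11.4% were called lower and 10.7% higher. In the second quantification the same 3 genes were called lower, against 7.06% of all genes tested there, and none higher, against 6.44%. None of the 10 differed over 2-fold, against 1.74% of all genes tested and 0.405% of the 6425 coding genes. The log2 ratio, animal 2 over animal 1, was positive for 5 of the 10 genes and negative for 5, with a median of 0.003, close to that of all genes tested, -0.002.

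Trim63 differed most. It had 5358 expected counts in animal 2 and 7157 in animal 1, although the library of animal 2 was the deeper one. The log2 ratio was -0.62 (95% counting interval -0.67 to -0.57), a level 0.651 times that of animal 1, with an adjusted p of 3.3e-124 in the exact binomial test. Of the 6425 genes with at least the lowest member's count, 1.01% had a ratio as low or lower. In either direction, 1.39% differed as far. That set starts at a summed count of 593 and so includes genes far shallower than Trim63. The deposited TPM intervals, whose level is not stated, were apart, at 94.5 to 99.7 in animal 2 and 134.3 to 140.7 in animal 1. Such intervals were also apart for Trim54, and for Fbxo32, Trim55 and Fbxo30, which were not called and had the higher TPM in animal 2. How many of all genes had intervals apart was not counted. The second quantification gave 117.9 TPM in animal 2 and 157.7 TPM in animal 1, with a log2 ratio of -0.56. Trim63 thus took 23.8% of the TPM of the 10 genes in animal 2 and 31.3% in animal 1.

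Cblb and Trim54 differed by less. Cblb had 665 expected counts in animal 2 and 727 in animal 1, a log2 ratio of -0.33 (95% counting interval -0.49 to -0.18, adjusted p of 0.00033 in the exact binomial test). For Cblb the deposited TPM intervals overlapped, at 4.13 to 5.20 in animal 2 and 4.78 to 5.85 in animal 1, although the call was also made in the second quantification. Trim54 had 4836 expected counts in animal 2 and 4946 in animal 1, a log2 ratio of -0.24 (95% counting interval -0.29 to -0.18, adjusted p of 4.8e-14 in the exact binomial test). In the second quantification Trim54 had 158.0 TPM in animal 2 and 158.1 TPM in animal 1, and after TMM scaling its log2 ratio there was -0.15. Ratios as low or lower were found for 3.52% of the same 6425 genes for Cblb and for 6.71% for Trim54. Neither is thus far out in that set, which includes shallower genes.

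Fbxo32 and Fbxo40, the members with the most counts, had ratios near 0. Fbxo32 had a log2 ratio of -0.02 (95% counting interval -0.06 to 0.03) and Fbxo40, with 10958 expected counts in animal 2 and 9597 in animal 1, one of -0.01 (-0.05 to 0.03). Of those 6425 genes, which include far shallower ones, 88.8% lay at least as far from 0 as Fbxo32 and 93.1% as far as Fbxo40. Trim63 and Fbxo32, usually named together as atrophy genes, thus had intervals that did not overlap in this comparison. Mdm2, with 1321 expected counts in animal 2 and 1135 in animal 1, had a log2 ratio of 0.02 (-0.10 to 0.13). Trim55, with 1951 and 1599 expected counts, had one of 0.09 (-0.01 to 0.18), and Fbxo30, with 709 and 586, one of 0.07 (-0.09 to 0.23). The shallowest members allow the widest range: Traf6 had 558 expected counts in animal 2 and 456 in animal 1 (0.09, -0.09 to 0.27), and Trim32 had 326 and 267 (0.09, -0.15 to 0.33). These 7 genes had adjusted p-values of 0.29 or more in the exact binomial test, and the intervals say how large a difference each could still hide.

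The sign of small ratios depends on the scaling. Dividing by the total of expected counts moved the median log2 ratio of all genes tested to 0.11, and 17.2% of calls were then lower in animal 2, against 53.9% under TMM and 40.7% under spike-in scaling. Under the total, Fbxo32 had a log2 ratio of 0.09 and Fbxo40 one of 0.10, and both were called higher in animal 2, as was Trim55. Of all 14754 genes tested, 2874 were called higher under that scaling and 595 lower. Trim63, Cblb and Trim54 were called lower in animal 2 under each of the 5 alternatives that gave calls. Ratios of TPM had a median of 0.12 over the 6425 genes. Less that median they were -0.63 for Trim63, -0.33 for Cblb and -0.24 for Trim54.

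**Figure D3:**
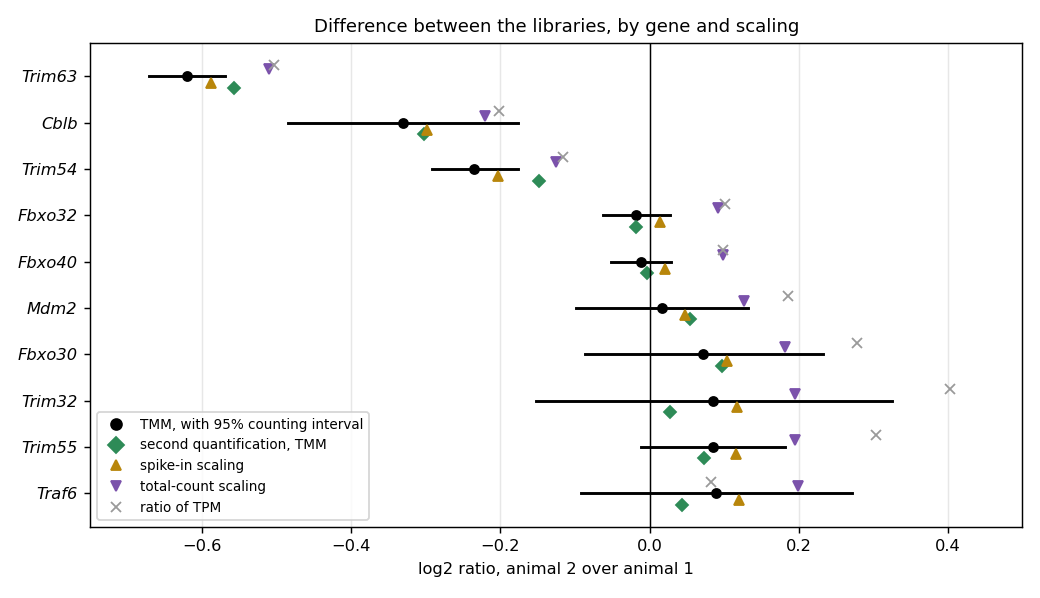
Log2 ratio of animal 2 over animal 1 for each gene, with black points for TMM scaling and lines for the 95% counting interval, and other symbols for other scalings and for the second quantification. Trim63 lies between -0.62 and -0.50 in each, while Fbxo32 and Fbxo40 move across 0 with the scaling.

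How far 1 coding transcript carried the gene differed between the members. Of 38 annotated transcripts of the 10 genes, 22 are coding, and the leading transcript was the same in both animals and both quantifications for 7 genes. Trim63-202 (9 exons) held 97.3% of the gene's TPM in animal 2 and 96.9% in animal 1, and Trim54-201 held 100% and 98.8%. Fbxo32 has 1 annotated transcript. Traf6-201 led with 87.5% in animal 2 and 79.4% in animal 1, and Cblb-201 led a more divided gene with 40.7% in animal 2 and 40.9% in animal 1, ahead of Cblb-204 at 35.2% and 26.8%. Nearly all of the Trim63 signal in both animals was thus that of its main coding transcript.

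The remaining genes had shares that the quantifications split differently. Trim55-202, a noncoding model of 506 bases, was given 32.1% of Trim55 in animal 2 and 25.8% in animal 1 by the first quantification, but 9.29% and 7.03% by the second. Fbxo40-204, a noncoding model of 383 bases, was given 18.5% in animal 2 and 17.9% in animal 1 by the first and 0 in both by the second, where Fbxo40-203, a retained intron, took 12.2% and 15.3%. Mdm2-204, a retained intron of Mdm2, was given 13.0% of animal 2 and 5.01% of animal 1 by the first quantification, and 41.2% and 37.2% by the second. Mdm2 reached 36.8 TPM in animal 2 and 26.5 TPM in animal 1 by the second quantification, against 17.1 TPM and 15.1 TPM by the first, and stood above Trim55 in animal 2 there. Fbxo30-202 held 50.2% in animal 2 and 59.6% in animal 1 by the first quantification, while Fbxo30-201 led in the second with 58.4% and 55.7%. Trim32-201 held 69.3% in animal 2 and 14.6% in animal 1 by the second quantification, where Trim32-202 took 83.6% of animal 1. For Trim32, Fbxo30 and Mdm2 the leading transcript was therefore not the same across the tables. The effective length follows these shares and was 2270 bases for Trim32 in animal 2 and 2622 in animal 1. The log2 ratio of Trim32 was 0.40 by TPM, or 0.28 less the median of TPM ratios, and 0.09 by counts.

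**Figure D4:**
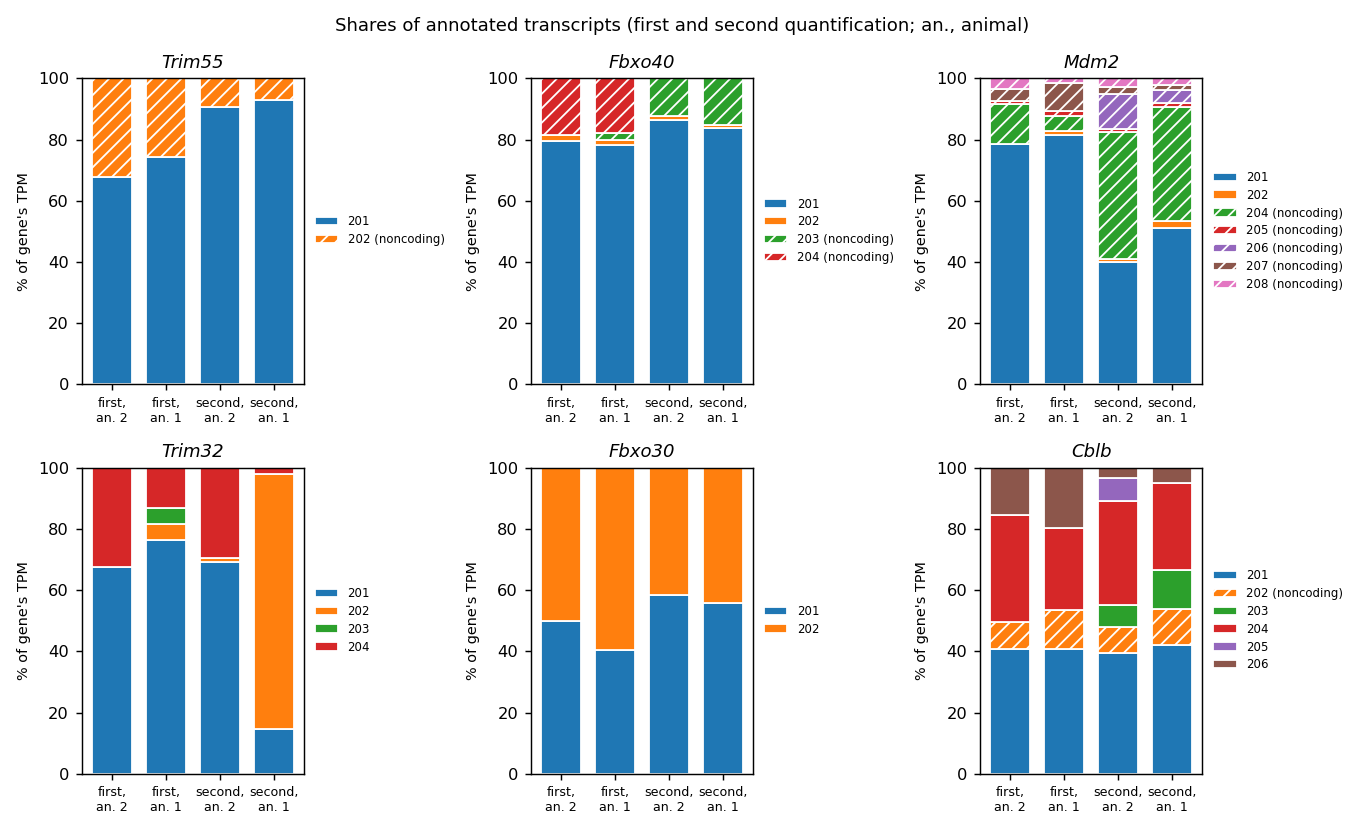
Percent of a gene's TPM assigned to each annotated transcript with 1% or more in any bar, for 6 genes; bars run from the first quantification (animal 2, animal 1) to the second (animal 2, animal 1), and hatching marks noncoding models. Trim55, Fbxo40 and Cblb keep their leading transcript throughout, while Mdm2, Trim32 and Fbxo30 do not.

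Genes that overlap the members held few reads. Gm15469, antisense to Trim54, had 0 expected counts in animal 2 and 3 in animal 1. BC002189, inside an intron of Trim55 on its strand, had 18 in animal 2 and 24 in animal 1, against 1951 and 1599 for Trim55. Astn2, which surrounds Trim32 on the other strand, had 53 in animal 2 and 45 in animal 1. The use of strand in counting is not given in the sources used here, so reads of such pairs may be split wrongly, most of all for Trim32.

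Several known regulators of these ligases were, like Trim63, lower in animal 2. Of 22 listed regulators, 6 were called lower and 2 higher there, their median log2 ratio being -0.08, against -0.002 over all genes tested, where 7.59% were lower and 6.49% higher. Foxo1, the FoxO factor named above, had 6.05 TPM in animal 2 and 12.2 TPM in animal 1, and its log2 ratio of -1.14 made it the only regulator over 2-fold (adjusted p of 4.4e-148 in the exact binomial test). Klf15, a glucocorticoid receptor target that acts on Trim63 and Fbxo32 in rodent muscle, had 13.0 TPM in animal 2 and 19.9 TPM in animal 1 (log2 ratio -0.73, adjusted p of 6e-30 in the exact binomial test). Cebpb, a factor that drives Fbxo32 in tumour-bearing mice, had 36.6 TPM in animal 2 and 44.1 TPM in animal 1 (log2 ratio -0.39, adjusted p of 2.7e-13 in the exact binomial test). Mef2c, a muscle transcription factor, had 134.8 TPM in animal 2 and 128.8 TPM in animal 1 (log2 ratio 0.09, adjusted p of 4.2e-06 in the exact binomial test). Fbxo32, a target of the same FoxO factors, had a log2 ratio of -0.02, and what part the regulators had in the level of Trim63 was not tested.

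Called differences in the shared machinery were small. Of 23 genes for ubiquitin, its activating enzymes and its conjugating enzymes, 3 were called lower in animal 2, against 7.59% of all genes tested. None was called higher (2 at an unadjusted p under 0.05 in the exact binomial test), against 6.49%. Their median log2 ratio was -0.01. Of the 9 SCF and cullin core genes, 1 was called higher (Cul3, 87.1 TPM in animal 2 and 69.7 TPM in animal 1). The log2 ratio of Cul3 by scaled counts, on which the call rests, was 0.105, against 0.32 by TPM. None was called lower (0 at an unadjusted p under 0.05 in the exact binomial test). Over all genes tested, 6.49% were called higher and 7.59% lower. Skp1a, the adaptor that F-box proteins bind, had 99.6 TPM in animal 2 and 91.2 TPM in animal 1, near the level of Fbxo40.

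Among 27 other ligases of muscle tested, 4 were lower and 4 higher in animal 2 (7.59% and 6.49% of all genes tested), but 2 were lower and 6 higher under spike-in scaling. Asb2, a cullin adaptor of muscle and above all 10 members in TPM, had 202.6 TPM in animal 2 and 195.1 TPM in animal 1. By scaled counts, however, Asb2 was called lower in animal 2, with a log2 ratio of -0.064. Nedd4, a HECT ligase, had 93.0 TPM in animal 2 and 85.7 TPM in animal 1 and was called higher, with a log2 ratio of 0.054. Of 15 deubiquitinases, which take ubiquitin off, 3 were lower and 2 higher. Otud1 was the only one over 2-fold, with 6.86 TPM in animal 2 and 15.5 TPM in animal 1 (log2 ratio -1.29, adjusted p of 2.6e-73 in the exact binomial test). Among 26 reported substrates and partners, 8 were lower and 6 higher. Of the 6425 genes with at least the lowest member's count, 11.4% were lower and 10.7% higher. That set is no match in depth for genes such as Mylpf, with 262697 expected counts in animal 2. The balance among the substrates and partners turned to 7 lower and 9 higher under spike-in scaling and to 8 and 9 in the second quantification. The largest called differences in that list were in slow fibre genes: Myl2 had 516.0 TPM in animal 2 and 256.1 TPM in animal 1, and Myh7 had 395.1 TPM and 229.5 TPM.

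**Figure D5:**
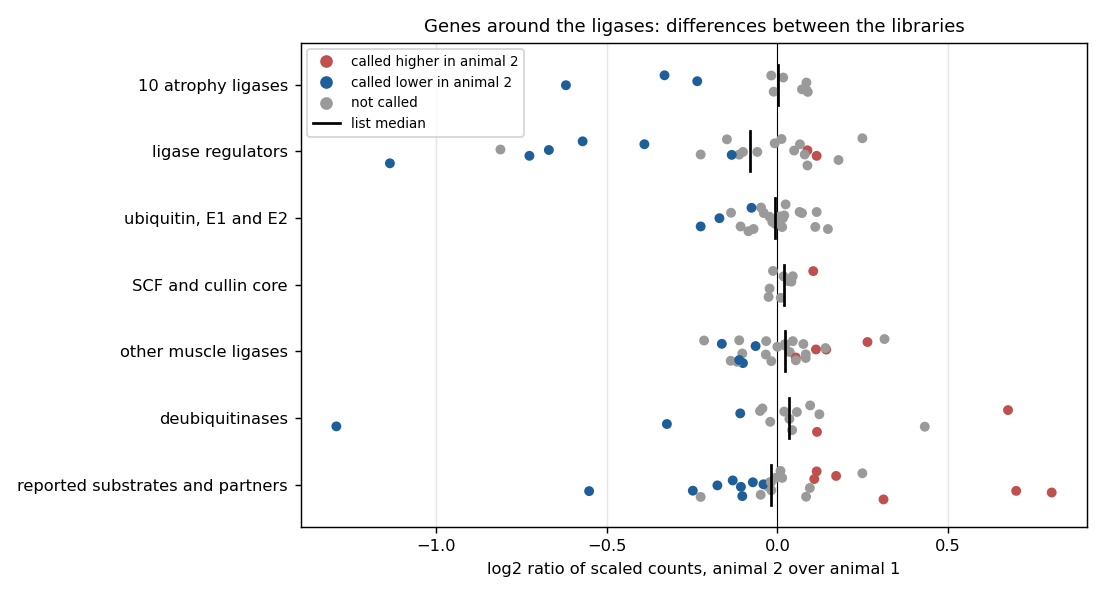
Log2 ratio of scaled counts, animal 2 over animal 1, of each gene in the 10 ligases and in 6 lists around them, with blue for genes called lower in animal 2, red for higher, grey for not called and black bars for list medians. The list medians lie within 0.1 of 0, and Foxo1 and Otud1 lie furthest to the left.

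The tissue label was checked against marker genes. All 6 skeletal fibre markers were detected, summing to 90830 TPM in animal 2 and 90770 TPM in animal 1. After TMM scaling, 5 of them were called lower in animal 2 and none higher. At their depth small ratios are called: Mylpf, with 262697 expected counts in animal 2 and 245882 in animal 1, had a log2 ratio of -0.11. For this and the lists below, 7.59% of all genes tested were called lower and 6.49% higher. Of 6 cardiac markers 2 were detected, and over the whole list 2 were called higher in animal 2 and 0 lower. Calls did not require detection: Sln, under 1 TPM in both animals, had 27 expected counts in animal 2 and 5 in animal 1. The cardiac list summed to 82.5 TPM in animal 2 and 61.0 TPM in animal 1. Most of that sum was Myh6, with 78.2 TPM in animal 2 and 58.5 TPM in animal 1, and Myl7 and Nppa had 0 counts in both. Markers of slow fibres and of other cells differed: all 6 slow fibre markers were called higher in animal 2 and summed to 1924 TPM there and 1035 TPM in animal 1. The 4 Schwann cell markers summed to 106.9 TPM in animal 2 and 52.9 TPM in animal 1, with 3 called higher. All 4 fibroblast markers were called lower and summed to 824 TPM in animal 2 and 1227 TPM in animal 1. The gap in that sum was nearly all Col1a1, with 469.1 TPM in animal 2 and 864.0 TPM in animal 1, since Col3a1 had 229.3 TPM in animal 2 and 228.8 TPM in animal 1. The 4 lymphocyte markers summed to 0.23 TPM in animal 2 and 0.04 TPM in animal 1. Of the other lists, endothelial markers summed to 41.9 TPM in animal 2 and 33.0 TPM in animal 1, macrophage markers to 10.6 and 11.4 TPM, adipocyte markers to 2.00 and 4.64 TPM and satellite cell markers to 32.2 and 31.3 TPM. Of these 4 lists, the endothelial one had 2 markers called higher in animal 2, the macrophage and adipocyte ones 1 each called lower, and the satellite cell one 1 in each direction. These differences stand beside those of Trim63, Cblb and Trim54, and their part in them was not tested.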

How the data were processed

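Total RNA was sequenced from 2 gastrocnemius samples, 1 library each. Expected counts, TPM and TPM intervals came from the authors' gene and transcript tables, with columns of the kind RSEM writes, per the file headers. The percent of a gene assigned to each transcript was also deposited there. The second transcript tables hold estimated counts and TPM under the headers of kallisto, as deposited, and were summed to genes. Per the descriptions deposited with the tables, mm10 and GENCODE M21 were used; the sources used here do not give tools, versions or the use of strand.

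Expected counts were rounded and scaled by TMM (edgeR 4.0.16, R 4.3.3). Genes whose counts summed to 20 or more were compared by an exact conditional binomial test (scipy 1.17.1), two-sided, called at a Benjamini-Hochberg adjusted p under 0.05. Ratios used a prior count of 0.5, ratios of TPM a pseudocount of 0.1, and intervals are exact (Clopper-Pearson, 95%). The step was tested on counts simulated with sampling error alone, so that check says nothing of differences between animals or libraries. A count of 0 allows 3 counts, 0.0802 CPM in animal 2 and 0.0855 CPM in animal 1; intervals and floors cover counting error only. Deposited p-values were not used.

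The members, lists and tests were chosen with earlier results of these data known. All members were named, and from each list the 2 most abundant genes and the 2 called with the largest ratio could be. Genes of like pattern were not named, since 2 samples give no measure of likeness. Of 121 list symbols, 120 matched. Alternatives were DESeq2 1.42.0 size factors, total counts, spike-in counts, no filter, the second quantification, ratios of TPM, another prior count, TPM over nuclear protein-coding genes and each animal alone. Some genes of the lists are not reported here by name.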

Additional observations from a re-analysis of the deposited data

How the results depend on the processing

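No paired analysis was possible because the series has 1 group. With 1 library per animal, a difference between animals cannot be told apart from one between libraries, and sampling error is the only error the exact test holds. Calls lower in animal 2 numbered 3 under each of the 5 alternatives that gave calls. Calls higher in animal 2 numbered 3 under the total of expected counts, against 0 under TMM. Over all 14754 genes tested, 2874 were called higher under the total, against 958 under TMM. Reversed under the total were Fbxo32 (0.092, against -0.018) and Fbxo40 (0.099, against -0.011). Trim55 passed the threshold there with 0.195 (adjusted p of 0.00059 in the exact binomial test, range over its settings 0.00059 to 0.41).

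The mean summed level of the 10 genes was 432 TPM. It was 538 TPM in the second quantification and 1090 TPM when scaled to nuclear protein-coding genes, and 416 TPM to 448 TPM with 1 animal left out. The cause of the higher level in the second quantification was not tested. Members of low count (Trim32, Traf6) are limited by depth. Under spike-in scaling other muscle ligases had 2 lower and 6 higher, against 4 and 4, and ubiquitin genes 2 higher, against 0.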
